A study of Rattus norvegicus with 6 samples.

Results

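Transcripts of 7 inflammatory genes were followed in rat kidney: the chemokine gene Ccl2, the cytokine genes Il6 and Il1b, the adhesion genes Icam1 and Vcam1, the receptor gene Tlr4 and the transcription factor gene Stat3. They were chosen by name for their role in inflammation, with earlier results of these data known, and looked up by identifier. All 7 were found among the 28787 gene models of the deposited tables. The tables carry Ensembl identifiers without gene names, so each name rests on the identifier listed for it: Ccl2 on ENSRNOG00000007159, Il6 on ENSRNOG00000010278, Il1b on ENSRNOG00000004649, Icam1 on ENSRNOG00000020679, Vcam1 on ENSRNOG00000014333, Tlr4 on ENSRNOG00000010522 and Stat3 on ENSRNOG00000019742. RNA came from kidneys of male rats aged 7 weeks. The controls, with 3 libraries, were Dahl Salt Sensitive (Dahl SS) rats, bred for a strong blood pressure response to salt, and 3 libraries came from a Resp18 mutant. Resp18 encodes a protein of endocrine and nerve cells. Both groups were fed 2% salt from 6 weeks of age for 1 week, and none of the 6 libraries is from a lower salt intake. The labels give neither the kind of mutation nor the strain that carries it. They also do not say whether each library is a different animal, and the spread behind every p-value here may therefore be technical. Whether the groups differ in Resp18 alone is not stated, so the mutation and any other variation between them cannot be told apart.

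The 7 genes act in linked steps of leukocyte entry into tissue. Tlr4 is the receptor for bacterial lipopolysaccharide and for some molecules released by damaged cells, and it signals to the transcription factor NF-kB, which switches on Ccl2, Il6, Il1b, Icam1 and Vcam1. Ccl2 draws monocytes towards the tissue, and Icam1 and Vcam1 on the vessel wall hold leukocytes through their integrins. Il6 acts through its receptor on Stat3, a factor that most cells hold in a latent form and that is activated by phosphorylation, so its transcript level is no measure of its activity. In salt-sensitive hypertension the kidney is a known site of immune cell entry. In RNA of whole kidney, fewer cells of a type and less RNA per cell cannot be told apart.

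The stretches before the transcription starts of Vcam1, Icam1 and Il6 are shown because these genes are classic NF-kB targets, 2 of them well detected here and Il6 nearly without reads. They are the 250 bases before the RefSeq start on the rat build GRCr8, written 5′ to 3′ on the gene's own strand, with matches in capitals. The search was for the NF-kB consensus and for TTCNNNGAA, the core read by STAT factors, on both strands; in these windows the matches do not overlap. The RefSeq table held a promoter for 6 of the 7 genes by symbol, all but Ccl2.
Vcam1, chr2:206742784-206743033, minus strand: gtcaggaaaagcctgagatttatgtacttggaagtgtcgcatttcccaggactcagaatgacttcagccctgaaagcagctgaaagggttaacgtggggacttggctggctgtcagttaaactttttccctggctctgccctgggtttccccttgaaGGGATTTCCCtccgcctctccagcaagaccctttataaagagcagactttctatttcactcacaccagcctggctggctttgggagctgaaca
Icam1, chr8:27829595-27829844, plus strand: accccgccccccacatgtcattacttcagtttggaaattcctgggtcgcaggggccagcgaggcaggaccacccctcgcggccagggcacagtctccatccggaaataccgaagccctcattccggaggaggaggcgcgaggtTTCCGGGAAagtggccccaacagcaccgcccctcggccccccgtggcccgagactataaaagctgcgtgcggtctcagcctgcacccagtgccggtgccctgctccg
Il6, chr4:5894576-5894825, minus strand: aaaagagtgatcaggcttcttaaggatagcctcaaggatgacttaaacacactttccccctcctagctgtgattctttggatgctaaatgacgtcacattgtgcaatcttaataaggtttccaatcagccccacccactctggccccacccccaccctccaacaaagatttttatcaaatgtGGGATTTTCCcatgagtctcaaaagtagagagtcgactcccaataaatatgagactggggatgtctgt

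In Vcam1 the capitals mark an NF-kB consensus match, GGGATTTCCC, from base 93 to base 84 before the start. In Il6 they mark GGGATTTTCC, from base 68 to base 59. Icam1 held no match to this strict NF-kB form in this window and 1 to the STAT core, TTCCGGGAA, from base 107 to base 99. The stretch tggaaattcc in the Icam1 window departs from the NF-kB form only at its opening base and was not marked. The lack of a match in Icam1 is therefore not the lack of an NF-kB site. In the Vcam1 window, tgggtttccc upstream of the capitals also departs only at its opening base and was not marked. Other near matches were not searched for. The windows of Il1b, Tlr4 and Stat3 held no match to the NF-kB consensus or the STAT core. Of 33469 rat promoter windows of the same length, 6.33% held the NF-kB consensus and 7.67% the STAT core. A match describes the letters only.

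The 7 genes spanned a wide range of levels. On the FPKM scale, which divides reads by model length and library total and so allows genes to be compared, Stat3 had the highest mean level over the 6 libraries, 53.4 FPKM (51.2 to 56.4), above 92.1% of models with any read. Vcam1 followed at 10.7 FPKM (8.62 to 13.6) and Icam1 at 8.74 FPKM (7.60 to 10.4). Vcam1 and Icam1 overlapped in range, so their order is not fixed by these libraries. The chemokine gene Ccl2 came next at 3.79 FPKM (2.86 to 4.79), then the receptor gene Tlr4 at 1.68 FPKM (1.44 to 1.99) and the cytokine gene Il1b at 0.927 FPKM (0.602 to 1.54). Tlr4 and Il1b overlapped in range, though Tlr4 was above Il1b within every library. Stat3, Ccl2 and Il6 stood clear of their neighbours. Mean FPKM of Stat3 was 5.01 times that of Vcam1 and 57.6 times that of Il1b.

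**Figure D1:**
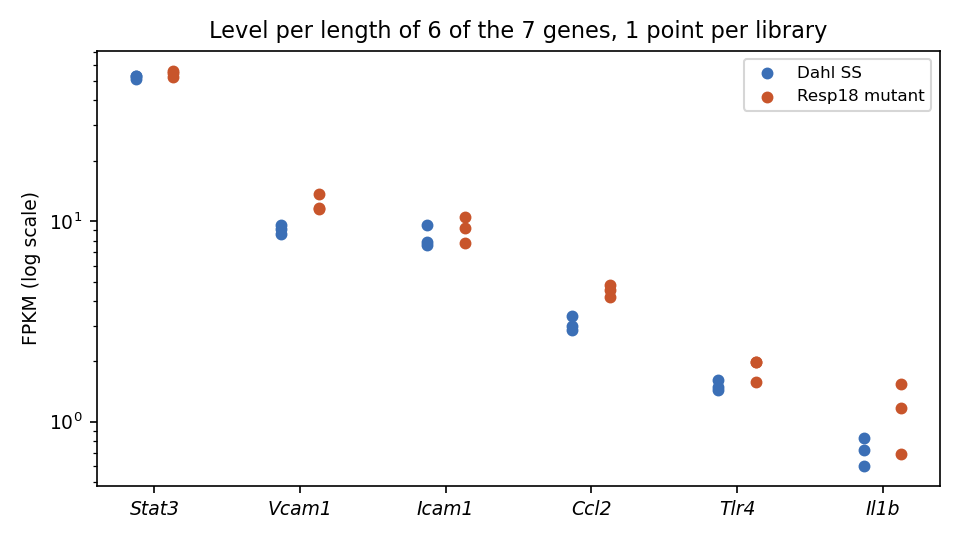
FPKM of 6 genes on a log axis, 1 point per kidney library, Dahl SS in blue and Resp18 mutant in orange. Stat3 lies between 51.2 and 56.4 FPKM, and Il1b between 0.602 and 1.54; Il6 is left out because 5 of its 6 values are 0.

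Il6 was practically undetected. The cytokine gene had 0 reads in each of the 3 controls and in mutant replicates 1 and 2, and 1 read in mutant replicate 3. A count of 0 allows up to 3 reads, which is 0.126 to 0.198 FPKM in the controls, 0.131 FPKM in mutant replicate 1 and 0.138 FPKM in mutant replicate 2. Il6 failed the filter on low counts and was not tested, and a difference at this level was not detectable at this depth.

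None of the 6 tested genes differed between mutant and Dahl SS kidneys at an adjusted p under 0.05 (edgeR's quasi-likelihood test, Benjamini-Hochberg adjustment over 16324 models). That test called 0.0123% of all models, so 0 of 6 is near the background. At an unadjusted p under 0.05 edgeR had 2 of the 6, Vcam1 and Ccl2, both higher in mutants, against 5.67% of all models. The groups did not overlap in 3 of the 6, Vcam1, Ccl2 and Stat3, with mutants higher, against 8.69% of all models. DESeq2 called none of these 6 at an adjusted p under 0.05, and 0.628% of the models it gave an adjusted p. All 6 fitted fold changes were above 0, against 50.9% of all models, and their median was 0.37 on the log2 scale against 0.0051 over all models. The genes share libraries, so they are not independent, and no test was made over the list. The list was chosen with earlier results of these data known, so its shares are description only.

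**Figure D2:**
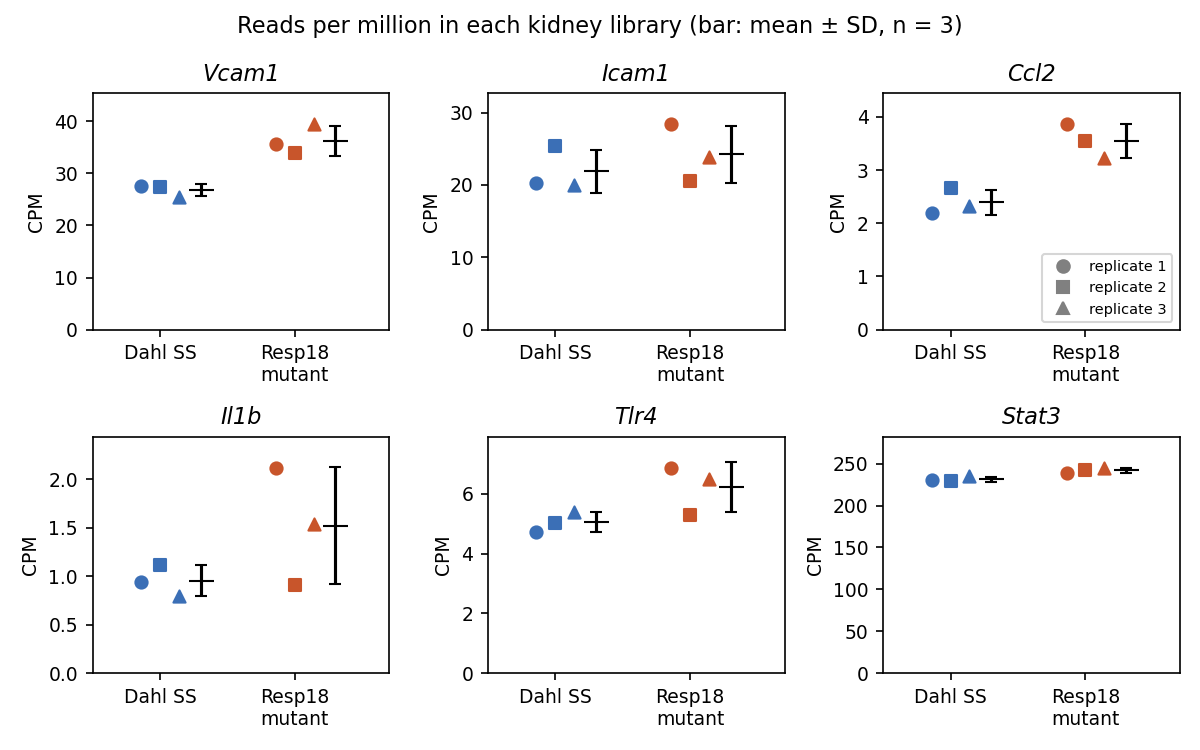
CPM (reads scaled to the TMM-scaled library size) of each tested gene in each kidney library, with the mean and SD of each group beside the points (n = 3). All 3 mutant points lie above all 3 Dahl SS points for Vcam1, Ccl2 and Stat3; for Icam1, Il1b and Tlr4 the groups overlap.

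Of the adhesion genes, Vcam1, which binds the integrin of monocytes and lymphocytes, had the lowest p of the 6. Its CPM was 27.6, 27.4 and 25.4 in Dahl SS replicates 1 to 3 and 35.5, 33.8 and 39.4 in mutant replicates 1 to 3, from 392 to 755 reads per library. Every mutant library was above every control, with no overlap. The means were 26.8 ± 1.22 and 36.3 ± 2.85 CPM (SD, n = 3). The fold change was 1.35 (95% interval 1.16 to 1.57; log2 0.43 ± 0.10 SE, edgeR unadjusted p = 0.00159, adjusted p = 0.277). A lower p was found in 92 other models, and DESeq2 gave Vcam1 an adjusted p of 0.0772. The difference is larger than the spread between libraries of this gene, but does not pass the adjustment over all models.

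Icam1 is the ligand of leukocyte beta-2 integrins. Its CPM was 20.3, 25.3 and 19.9 in Dahl SS replicates 1 to 3 and 28.4, 20.5 and 23.8 in mutant replicates 1 to 3. The groups overlapped, with 1 mutant library above the highest control. The fold change was 1.11 (95% interval 0.882 to 1.40; log2 0.15 ± 0.15 SE, edgeR adjusted p = 0.693), so the interval holds no change and reaches the estimate for Vcam1. The log2 value was 0.027 with mutant replicate 1 left out and -0.032 with Dahl SS replicate 1 left out as well. In the other direction, leaving out Dahl SS replicate 2 gave 0.27, as did leaving out mutant replicate 2. The Vcam1 to Icam1 ratio in FPKM was 1.21, 0.962 and 1.13 in Dahl SS replicates 1 to 3 and 1.12, 1.47 and 1.47 in mutant replicates 1 to 3. Mutant replicate 1 lay within the control range of this ratio and the other two above it; a difference between the genes in their response was not tested.

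The chemokine gene Ccl2 had 51, 38 and 38 reads in Dahl SS replicates 1 to 3 and 82, 74 and 44 in mutant replicates 1 to 3. In CPM these were 2.19, 2.65 and 2.33 against 3.86, 3.55 and 3.22. The groups did not overlap. The means were 2.39 ± 0.238 and 3.54 ± 0.321 CPM (SD, n = 3), a fold change of 1.49 (95% interval 1.08 to 2.06; log2 0.58 ± 0.21 SE, edgeR unadjusted p = 0.0213, adjusted p = 0.397). At these depths counting error alone is 11.0% to 16.2% of a value, more than the observed spread of 9.94% in Dahl SS and 9.07% in mutants. Ccl2 is a short model of 780 bases, and the 1869 tested models of 500 to 1000 bases had a median log2 fold change of 0.14. With the trend on length removed from each library, the log2 fold change of Ccl2 was 0.45 ± 0.20 SE (edgeR adjusted p = 0.391).

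**Figure D3:**
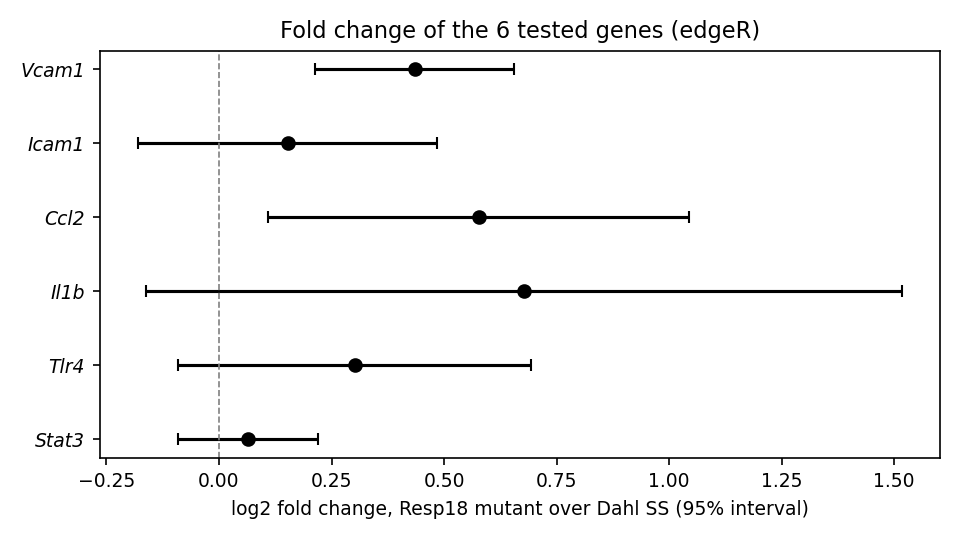
Log2 fold change of mutant over Dahl SS kidneys with 95% intervals for the 6 tested genes, from the edgeR fit over all models. The intervals of Vcam1 (0.21 to 0.66) and Ccl2 (0.11 to 1.04) lie above 0, and the other 4 include it.

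Il1b, the cytokine that signals through the interleukin-1 receptor, had the widest interval of the 6 in the edgeR fit. It had 22, 16 and 13 reads in Dahl SS replicates 1 to 3 and 45, 19 and 21 in mutant replicates 1 to 3, or 0.945, 1.12 and 0.797 CPM against 2.12, 0.912 and 1.54 CPM. Mutant replicates 1 and 3 were above all controls and mutant replicate 2 was below Dahl SS replicates 1 and 2. The fold change was 1.60 (95% interval 0.894 to 2.86; log2 0.68 ± 0.37 SE, edgeR adjusted p = 0.510). This was above the value of Ccl2 in the same fit, but the order is not fixed. With limma on log2(FPKM + 0.1) the value was 0.54 for each of Il1b and Ccl2. On log2(FPKM + 1) limma gave 0.29 for Il1b and 0.44 for Ccl2, but that scale understates the change of low genes such as Il1b. Without mutant replicate 1 the log2 value was 0.34 for Il1b and 0.52 for Ccl2. For Il1b it was 0.96 without mutant replicate 2, so its size moved with single libraries.

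For the receptor gene Tlr4 the CPM was 4.72, 5.03 and 5.40 in Dahl SS replicates 1 to 3 and 6.87, 5.28 and 6.51 in mutant replicates 1 to 3. Mutant replicate 2 fell within the controls and the other two lay above them. The fold change was 1.23 (95% interval 0.939 to 1.62; log2 0.30 ± 0.17 SE, edgeR adjusted p = 0.526). The log2 value was 0.17 without both Dahl SS replicate 1 and mutant replicate 1, and 0.18 with limma on log2(FPKM + 1), a scale that understates the change of low genes.

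Stat3, the most abundant of the genes, was also the most even. Its CPM was 230.02, 229.4 and 234.9 in Dahl SS replicates 1 to 3 and 238.4, 242.6 and 245.1 in mutant replicates 1 to 3, with a spread of 1.32% and 1.41% of the mean within the groups. The groups did not overlap on this scale, but they did in FPKM and in CPM on total counts, where 2 of the 6 genes were without overlap, against 8.44% of all models. The fold change was 1.05 (95% interval 0.938 to 1.17; log2 0.064 ± 0.069 SE, edgeR adjusted p = 0.720). Counting error alone is 1.37% to 1.74% of a Stat3 value and at least 3.64% in the other tested genes. The evenness of Stat3 therefore cannot be told apart from its read number.

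Across the 6 libraries the tested genes varied in part together. Log2 CPM correlated positively in 15 of 15 pairs, with Pearson's r from 0.072 (Icam1 with Stat3) to 0.90 (Il1b with Icam1). These 6 points share libraries and depth and include the difference between groups. With each group's mean taken out, 10 of 15 pairs were positive, from -0.66 (Icam1 with Stat3) to 0.92 (Il1b with Icam1), while Ccl2 with Vcam1 turned from 0.83 to -0.37. Mutant replicate 1 was the highest mutant library for Ccl2, Il1b, Icam1 and Tlr4, 4 of 6 genes, and mutant replicate 2 the lowest for Il1b, Icam1, Vcam1 and Tlr4. Mutant replicate 1 also stood at one end of a trend with model length, with a Spearman correlation of its deviations with length of -0.37, against 0.37 in Dahl SS replicate 1 and -0.17 to 0.04 in the other 4. The 6 log2 fold changes with the trend removed ran from 0.11 (Stat3) to 0.60 (Il1b).

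Among 15127 other models with a mean of at least 1 CPM, the 2 closest matches to a member over the 6 libraries were Novel01769, a model without an Ensembl identifier, to Stat3 (Pearson's r = 0.997) and ENSRNOG00000004540 to Ccl2 (r = 0.996). Each is the highest of 15127 values over 6 libraries that include the difference between groups, so it does not show that the models are linked. At the looser cut of r above 0.95 there were 82 models with Ccl2 and 33 with Stat3.

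**Figure D4:**
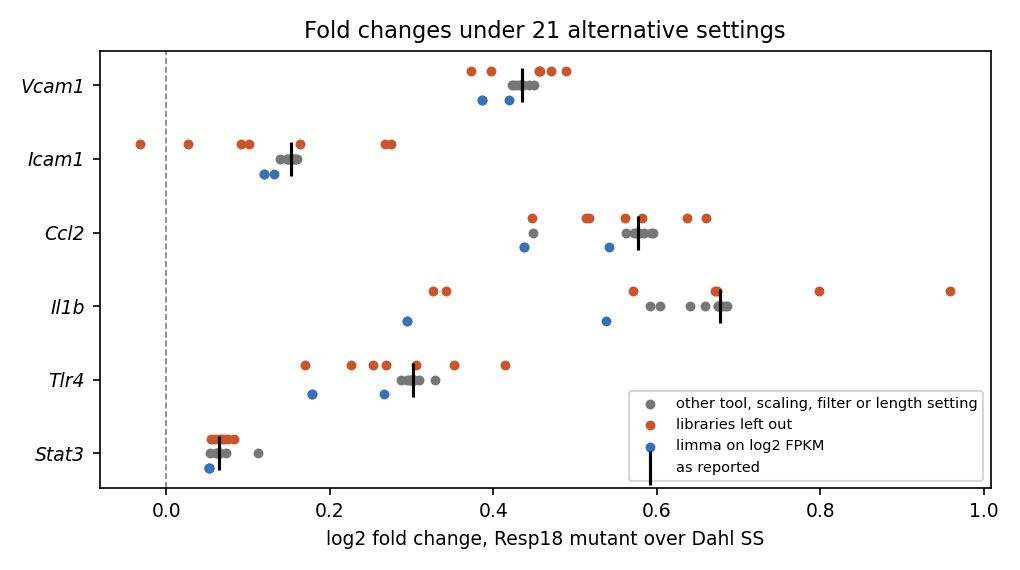
Log2 fold change of each tested gene under 21 alternative settings (grey, other tools, scalings, filters or length correction; orange, libraries left out; blue, limma on log2 FPKM), with the reported value as a black bar. Vcam1 stays between 0.37 and 0.49 and Ccl2 between 0.44 and 0.66, while Il1b runs from 0.29 to 0.96 and Icam1 from -0.032 to 0.27.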

How the data were processed

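Kidney RNA was sequenced in 3 Dahl SS and 3 Resp18 mutant libraries, from 3 ug of total RNA each and made with a NEBNext Ultra kit, per the labels' protocols. The authors deposited raw counts and FPKM values for each gene model. Per the submitters' processing notes the build was Rnor 5.0, and HISAT2 2.1.0, HTSeq 0.6.1 and CASAVA 1.8 are listed without a role. Strand handling and the treatment of reads with several placements were not stated. All 117134 nonzero deposited FPKM values equalled the count scaled by library total and a whole-number length (to within 1e-04 bases), so FPKM adds only the length. Library totals were 13427302 to 22854561 reads. The limits given for a count of 0 cover counting error only.

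The members and lists were chosen with earlier results of these data known. All 7 members are named; the closest other models were chosen by correlation. The reference matched 0 identifiers, so 5 lists of pathway genes and 10 of cell type markers, and with them the check of the tissue, were not analysed here.

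Counts were fitted with edgeR 4.0.16 in R 4.3.3 (filterByExpr, minimum count 10; TMM; quasi-likelihood F test on group; Benjamini-Hochberg over 16324 models; threshold 0.05). The fit was also run on simulated counts. These held no trend with model length, so they do not test the fit against that trend. The biological coefficient of variation was 14.4%. Standard errors are the log2 fold change over the square root of F. Alternatives were DESeq2 1.42.0, limma 3.58.1 (voom; log2 of FPKM plus 1 or 0.1), other scalings and filters, a replicate block, libraries left out and a length correction. Same-numbered libraries did not deviate together, so they are not taken as pairs.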

Additional observations from a re-analysis of the deposited data

How the results depend on the processing

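No tested gene was called under any of the 21 alternatives, where adjusted p-values of Vcam1 ran from 0.0772 (DESeq2) to 0.825 (replicate block). All 6 kept their direction, except Icam1, at -0.032 (log2) without both Dahl SS replicate 1 and mutant replicate 1. The median log2 fold change of the tested members was 0.24 with limma on log2(FPKM + 1), 0.18 there with no filter, where Il6 counts too, and 0.28 to 0.45 with 1 library left out. Of all models, edgeR called 2, and 3 without mutant replicate 1. Leaving out Dahl SS replicate 1 gave 13, Dahl SS replicate 2 gave 1, mutant replicate 3 gave 6, and Dahl SS replicate 1 together with mutant replicate 1 gave 22. DESeq2 called 104, limma-voom 1 and the 3 limma settings on log2 FPKM 1 each. The cause was not tested. The newer edgeR dispersion estimate, added after seeing the data, also gave 2. On total counts 2 members, not 3, had groups without overlap. The labels number both groups 1 to 3, but correlations of same-numbered deviations were -0.274, -0.144 and -0.00176; with the replicate block edgeR again called 2 models and the median of the members was 0.37. Il6 had too few reads to be tested, and Il1b had the fewest of the tested members.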
